A study of Mus musculus with 6 samples.

Results

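Copying the genome in S phase needs a set of enzymes and regulators whose transcripts are made around the entry into that phase. The 39 genes described here encode origin licensing factors, the 6 subunits of the MCM helicase, its activators, DNA polymerases with their clamp and clamp loader, enzymes of Okazaki fragment processing and of nucleotide supply, cyclin E, E2F factors, 2 checkpoint proteins and the chromatin factor Uhrf1. They were taken by gene symbol from the deposited table of 21825 genes. All 39 were found, and all 39 passed the filter on low counts that left 15719 genes for testing. The cells were group 2 innate lymphoid cells (ILC2s), tissue lymphocytes without a rearranged antigen receptor that make type 2 cytokines. Sorted lung ILC2s were kept for 48 h with 40 ng/mL recombinant mouse TNFa, an inflammatory cytokine, or for 48 h with PBS as its control. The mice of both groups were BALB/c, aged 6 weeks, and had been given IL-33 intraperitoneally (3 injections of 1 µg). Both cultures also held IL-2 and IL-7 at 10 ng/mL each. There were 3 libraries a group, TNFa replicates 4 to 6 and PBS replicates 1 to 3. The labels do not tie the libraries to separate mice or cultures, so every p-value measures the spread between these libraries, which may be technical.

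In textbook outline, the origin recognition complex (ORC) marks replication origins in G1, and Cdc6 and Cdt1 load the ring of Mcm2 to Mcm7 onto them, a step that geminin (Gmnn) blocks once S phase has begun. Kinases then recruit Cdc45 and the GINS complex, which turn the ring into an active helicase, and the polymerases follow. E2F transcription factors drive most of these genes at the G1 to S transition. Because the transcripts peak in cycling cells, their level in a bulk library depends on the share of cells in cycle as well as on the amount of RNA in each, and these cannot be told apart here.

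Levels are given as CPM, a gene's count relative to the library's total after TMM scaling, which corrects library sizes for a few very abundant genes. The sorted cells carried the transcripts of their label, as 13 of 14 ILC2 markers averaged at least 10 CPM, summing to between 10640 and 11713 CPM with TNFa and between 10129 and 11479 CPM with PBS. The sum was led by Il5, at 5442 CPM with TNFa and 4520 CPM with PBS, and single markers differed. Icos was lower with TNFa (log2 fold change -0.78 ± 0.10, edgeR adjusted p = 0.036). Arg1, Gata3, Il1rl1, Klrg1, Il17rb and Rora were lower and Il5 and Areg higher without overlap, and none of these passed the test with all libraries. Mast cell and basophil markers, 7 of 8 of them at that level, summed to between 1360 and 1551 CPM with TNFa and between 1312 and 1453 CPM with PBS, so such transcripts were present in every library. T cell markers summed to between 376 and 431 CPM with TNFa and between 450 and 475 CPM with PBS (6 of 10 at 10 CPM or more). That sum was led by Trbc2, at 211 CPM with TNFa and 242 CPM with PBS, and Trbc1, at 87.1 and 104 CPM. Cd3g averaged 41.2 and 43.1 CPM, Cd3e 14.8 and 18.3 CPM and Cd4 5.54 and 8.61 CPM. NK cell and ILC1 markers summed to between 16.2 and 23.2 CPM with TNFa and between 39.9 and 70.0 CPM with PBS (1 of 7). Most of that last sum was Gzma, at 13.4 CPM with TNFa and 50.4 CPM with PBS, while Ncr1 averaged 2.98 CPM with TNFa and 1.27 CPM with PBS. B cell, myeloid, structural and erythroid lists stayed at or below 207 CPM in every library. Every gene in the table had a total of at least 10 counts. None of the listed markers that it holds could therefore be at 0 in all libraries. Whether these transcripts came from cells other than ILC2s was not tested. The part of any such cells in the values of the replication genes was not tested either. Libraries held 25089415 to 32487004 counts with TNFa and 29185442 to 30908757 counts with PBS, and every member had between 643 and 46010 counts in each library, so counting error was small beside the spread between libraries. TNFa replicate 5 stood apart, holding 4.69% of its counts in ribosomal protein genes against 2.93% to 3.27% in the other libraries. The values it moved most are given with and without it.

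Replication genes were expressed above the median gene in both groups, and none passed the test for a difference between them. The 39 genes together made up 0.856%, 0.735% and 0.853% of all counts in TNFa replicates 4, 5 and 6, against 0.851%, 0.848% and 0.872% in PBS replicates 1, 2 and 3. By this share TNFa replicate 5 was the low library, and replicates 4 and 6 lay within the range of the PBS libraries. The 95% Wilson interval of the share in replicate 5 was 0.731% to 0.738%, which covers counting error only. On the TMM-scaled CPM scale the genes summed to 8147 ± 497 CPM with TNFa and 8575 ± 180 CPM with PBS (mean ± SD, n = 3 each). The sums were 8483, 7576 and 8383 CPM in TNFa replicates 4, 5 and 6, against 8772, 8421 and 8531 CPM in PBS replicates 1, 2 and 3. On this scale replicate 6 was also below every PBS library, by little, and replicate 4 was within their range. With edgeR's quasi-likelihood fit and p-values adjusted over all tested genes by Benjamini and Hochberg's method, 0 of the 39 passed an adjusted p of 0.05, where 16 of 15719 genes, or 0.102%, did. DESeq2, which called 1.57% of genes, and limma voom with quality weights, which called 0.496%, also called 0 members. The members' adjusted p-values ran from 0.489 to 0.995. The number of genes called over the whole table rested on each library, standing at 1, 3 and 2 without PBS replicates 1, 2 and 3 and at 3, 67 and 5 without TNFa replicates 4, 5 and 6. These were 0.00604%, 0.0181% and 0.0123% of genes without a PBS library, and 0.0181%, 0.406% and 0.0305% without a TNFa library. The number of members called was 0 in each of these fits.

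The differences were small as well as uncalled. The median log2 fold change of the 39 genes, TNFa over PBS, was -0.05, and that of all tested genes was 0.00. Fitted values were higher with TNFa for 11 members and lower for 28, a division that became 18 and 21 when libraries were scaled by their upper quartile. That scaling raised genes at large, as 8669 of the tested genes were then higher, against 7951 with TMM. The medians under it were -0.01 for the members and 0.04 for all tested genes. For 32 members the fitted log2 fold change was under 0.2 in either direction. The 95% interval of the fold change lay within 1.5-fold either way for 36 members and within 2-fold for all 39. The 3 whose intervals reached past 1.5-fold, on the lower side, were E2f2, Pold1 and Pole. These 3 were also the members with an unadjusted p under 0.05, all lower with TNFa, where 8.31% of tested genes reached that level and 4.63% did so with lower values. Without PBS replicate 1 or without PBS replicate 2 no member reached it (0 of 39), against 6.06% and 5.22% of genes. Without TNFa replicate 5, 2 of 39 reached it, against 10.8% of genes, and Pole did not (edgeR unadjusted p = 0.069). The smallest change that passed anywhere in the table was 0.73 on the log2 scale. Groups did not overlap for 8 members, 2 higher and 6 lower with TNFa, beside 15.2% of all tested genes, of which 6.85% were higher and 8.35% lower. The 6 lower ones were Mcm2, Mcm7, Pold1, Pole, E2f2 and Gins3, and the 2 higher ones Prim1 and Rfc3. Without PBS replicate 3 there were 17 such members against 27.2% of genes, and without TNFa replicate 6 there were 13 against 25.2%.

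**Figure D1:**
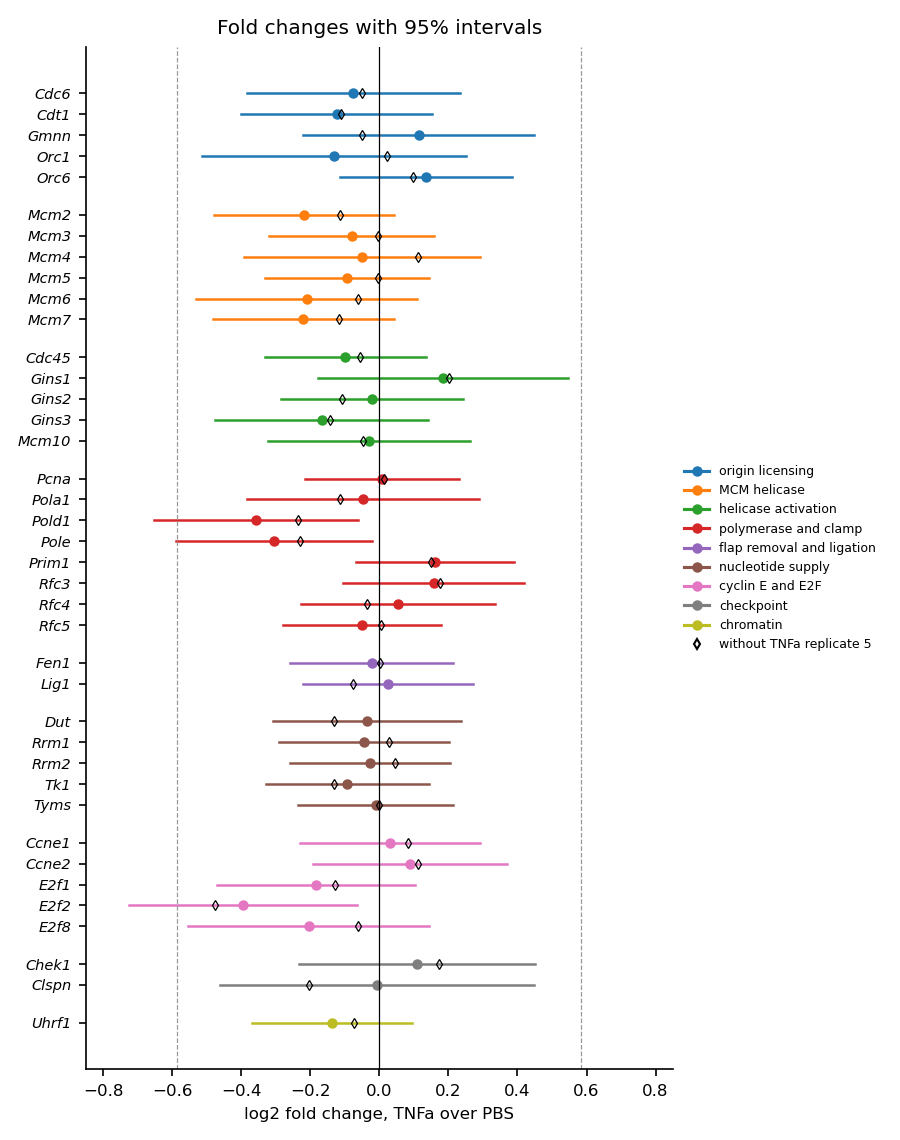
Fitted log2 fold change of each of the 39 genes, TNFa over PBS (filled points, coloured by role), with its 95% interval (bars) and the value without TNFa replicate 5 (open diamonds). Dashed lines mark 1.5-fold either way, and the bars of E2f2, Pold1 and Pole reach past the lower one.

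Divided by the length of the main transcript, which allows levels to be compared between genes, the members spanned about 2 orders of magnitude. Rrm2, the small subunit of ribonucleotide reductase, was the most abundant, at 608 CPM per kb with TNFa and 620 CPM per kb with PBS. The sliding clamp Pcna followed at 306 and 305 CPM per kb. The checkpoint kinase Chek1 was the least abundant, at 7.20 CPM per kb with TNFa and 6.68 with PBS, just below Pole, the catalytic subunit of polymerase epsilon, at 8.30 and 10.3 CPM per kb. In the PBS libraries 17 members were among the top 10% of genes by this measure, and all 39 were above the median gene. The 6 MCM subunits, which assemble in equal numbers, stood between 98.5 (Mcm4) and 152 (Mcm6) CPM per kb with TNFa and between 102 (Mcm4) and 176 (Mcm6) CPM per kb with PBS. The 3 GINS subunits among the members were lower, from 12.8 to 27.2 CPM per kb with TNFa and from 14.3 to 23.9 with PBS. Gins4, of the same complex but not a member, stood at 55.4 CPM per kb over all libraries.

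**Figure D2:**
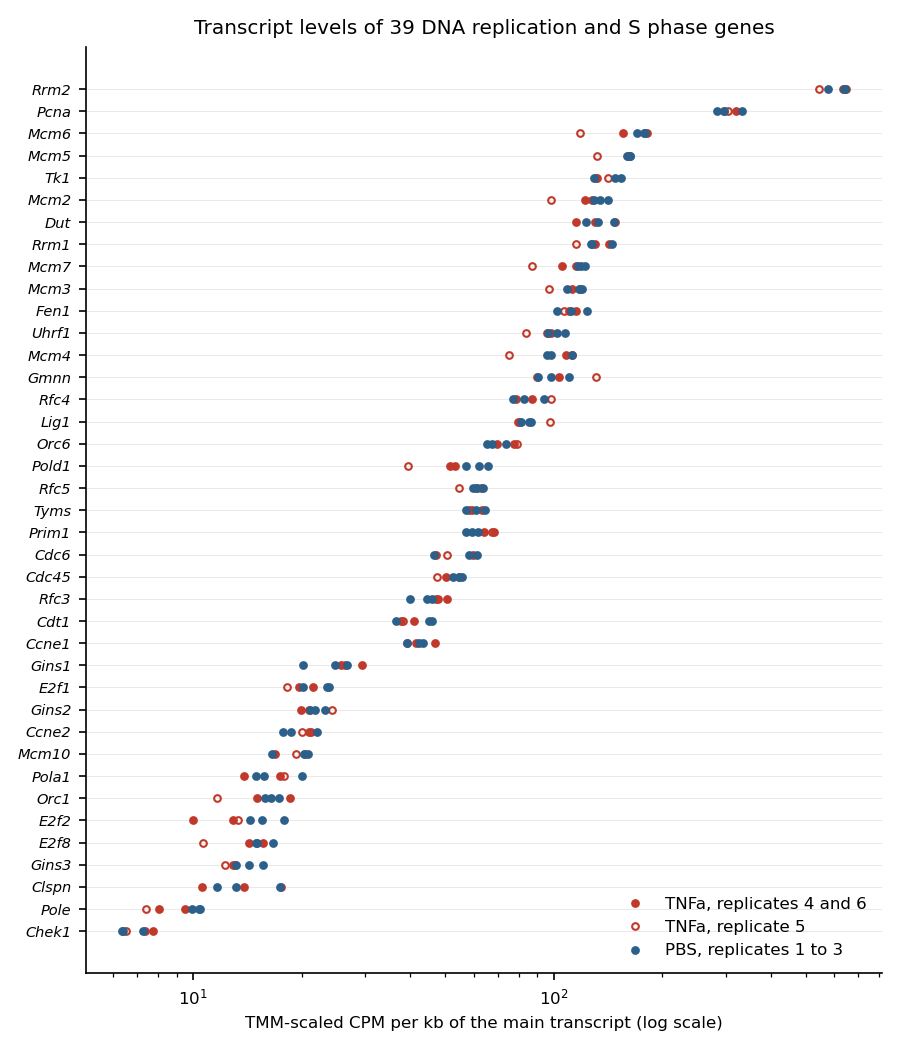
Level of each gene in every library, as TMM-scaled CPM per kb of the main transcript on a log axis, with genes ordered by their PBS mean. Red points are TNFa libraries (replicate 5 open) and blue points PBS libraries, and the colours overlap for all but the 8 genes named above as without overlap.

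Promoter sequence was not used to choose the members. RefSeq promoter windows (GRCm38.p6, 250 bases before to 50 after the start site) were at hand for 33 members, 39 windows in all. An E2F-type word, any of TTTCCCGC, TTTCGCGC, TTTGCCGC and TTTGGCGC on either strand, stood in 38.5% of the members' windows and in 3.84% of the windows of all tested genes. It was found in 27.7% of the 65 windows at hand for 54 of 70 other replication genes, and in 3.57% of the 28 windows for 26 of 30 mitosis genes. The median GC content of the members' windows was 58.0%, against 60.0% for all tested genes. The CCAAT box, searched on both strands, stood in 59.0% of the members' windows and in 37.8% of those of tested genes. It stood in 44.6% of the windows of the other replication genes and in 82.1% of those of the mitosis genes, more than among the members. A CHR-type word (TTTGAA or TTCGAA, both strands) was in 20.5% of the members' windows, 14.8% of those of tested genes and 82.1% of those of the mitosis genes. A word in a window is a description and does not show that a factor binds there.

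**Figure D3:**
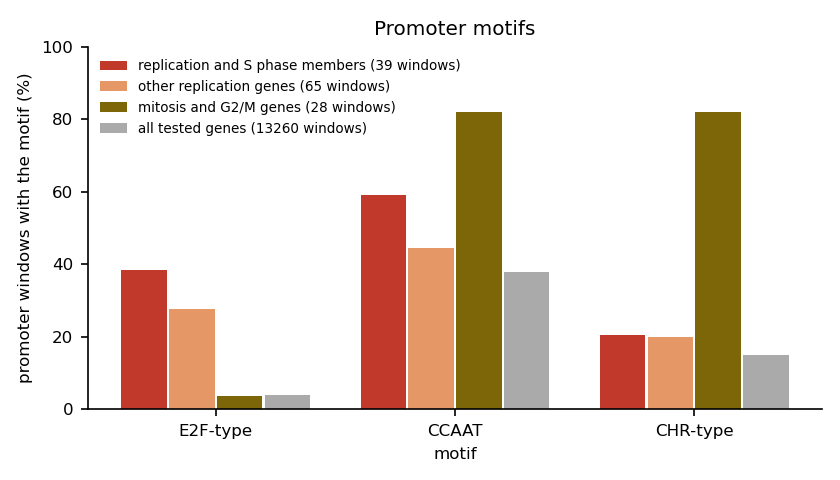
Share of promoter windows that hold an E2F-type word, a CCAAT box or a CHR-type word, for the replication and S phase genes, the other replication genes, the mitosis and G2/M genes and all tested genes. The E2F-type word stands in 38.5% of the members' windows, and the CHR-type word in 82.1% of those of the mitosis genes.

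Of the 15 members with an E2F-type word, 5 had more than 1 in a window, and 4 of these encode MCM subunits (Mcm3, Mcm5, Mcm6 and Mcm7), the fifth being Rfc3. Shown here are 60 bases upstream of the RefSeq start, for the 4 members whose word is closest to the start among those with a word wholly before it. Mcm5 and Mcm7 were added after values were seen, because all MCM genes shared their lowest library. Words that lie past the start, as also in Mcm7, Mcm3 and Clspn, are not shown. The lines run 5′ to 3′ on the strand of the gene, with the E2F-type words in capitals. In Mcm5 the capitals are a pair of words that overlap on opposite strands.
Mcm5, chr8:75109334-75109393, plus strand: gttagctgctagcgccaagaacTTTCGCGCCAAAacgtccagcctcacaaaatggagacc
Mcm6, chr1:128359719-128359778, minus strand: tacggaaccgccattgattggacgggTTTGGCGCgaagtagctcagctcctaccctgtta
Mcm7, chr5:138172015-138172074, minus strand: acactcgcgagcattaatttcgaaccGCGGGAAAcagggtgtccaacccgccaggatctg
Orc1, chr4:108579394-108579453, plus strand: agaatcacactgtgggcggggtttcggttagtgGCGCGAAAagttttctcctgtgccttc
Gins3, chr8:95633492-95633551, plus strand: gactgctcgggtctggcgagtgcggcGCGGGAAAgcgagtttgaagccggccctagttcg
Rfc3, chr5:151651209-151651268, minus strand: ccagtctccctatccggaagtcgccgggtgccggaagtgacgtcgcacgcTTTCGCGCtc
The words begin 10 bases before the start in Rfc3 (position -10), at position -27 in Orc1, -41 in Gins3, -47 in Mcm6, -149 in Mcm5 (the nearer of the pair) and -165 in Mcm7.

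Among the origin licensing genes none passed the test, and fitted values were higher for 2 and lower for 3. Orc1, the largest ORC subunit, had 56.0, 35.2 and 45.4 CPM in TNFa replicates 4, 5 and 6, against 47.7, 49.7 and 52.2 CPM in the PBS libraries. The TNFa values lay on both sides of the narrow PBS range (log2 fold change -0.13 ± 0.17, SE, edgeR adjusted p = 0.876). Without replicate 5 the sign turned, at 0.02. Orc6, a small ORC subunit, had 100, 102 and 89.7 CPM with TNFa, against 94.97, 86.7 and 84.1 CPM with PBS (0.14 ± 0.11, edgeR adjusted p = 0.794). Cdc6, the ATPase that joins ORC to load the helicase, had 121, 129 and 153 CPM with TNFa, against 149, 119 and 156 CPM with PBS, and its groups overlapped throughout. Cdt1, the loading factor that carries the MCM ring, averaged 85.4 ± 3.94 CPM with TNFa and 93.0 ± 11.5 CPM with PBS. Its inhibitor Gmnn had 117, 148 and 101 CPM in TNFa replicates 4, 5 and 6, against 125, 102 and 111 CPM with PBS, so replicate 5 was the highest of the 6 and replicate 6 the lowest. Its log2 fold change was 0.11 with replicate 5 and -0.05 without it. The Gmnn value divided by the Cdt1 value of the same library was 1.30, 1.76 and 1.22 with TNFa, against 1.26, 1.02 and 1.39 with PBS, with the groups overlapping. This quotient is not corrected for length and compares libraries only.

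The 6 MCM helicase genes shared 1 low library. All 6 genes had their lowest value of the 6 libraries in TNFa replicate 5. That library was the lowest for 43.6% of all members. It was also the lowest for 38.2% of the 6383 tested genes at least as abundant as the least abundant member. Their sum was 2555, 1943 and 2502 CPM in TNFa replicates 4, 5 and 6, against 2594, 2571 and 2580 CPM in PBS replicates 1, 2 and 3. Replicates 4 and 6 were slightly below the lowest PBS library, and replicate 5 was far below it. On the log2 scale the mean of the 6 genes, relative to the PBS mean, was -0.02, -0.41 and -0.04 in TNFa replicates 4, 5 and 6. Single genes spread more widely in replicate 5 in general. Over the 6383 tested genes at least as abundant as the least abundant member, the SD of the deviation was 0.40 there. It was 0.23 in replicate 4 and 0.25 in replicate 6.

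Mcm6 had 527, 345 and 453 CPM with TNFa, against 519, 495 and 520 CPM with PBS (log2 fold change -0.21 ± 0.14, edgeR adjusted p = 0.746). Its TNFa values included both the highest and the lowest of all libraries. Mcm4 had 404, 270 and 387 CPM with TNFa, against 352, 343 and 403 CPM with PBS (-0.05 ± 0.15, edgeR adjusted p = 0.956), so replicate 4 exceeded every PBS library while replicate 5 lay below them all. Mcm2, the subunit that also binds histones, had 412, 331 and 430 CPM with TNFa, against 453, 475 and 436 CPM with PBS. Here the groups did not overlap (-0.22 ± 0.12, edgeR adjusted p = 0.688). Mcm7 had 311, 257 and 342 CPM with TNFa, against 362, 347 and 352 CPM with PBS, again without overlap (-0.22 ± 0.12, edgeR adjusted p = 0.688). The Mcm7 gene holds 3 miRNA genes (Mir25, Mir93 and Mir106b) and shares exon bases with Cops6 and Ap4m1 on the other strand. Mcm5, the most abundant MCM gene in CPM, averaged 512 ± 57.7 CPM with TNFa and 547 ± 6.52 CPM with PBS, and Mcm3 averaged 331 ± 33.1 and 350 ± 17.4 CPM.

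Without TNFa replicate 5 the median log2 fold change of the 6 MCM genes was -0.03, against -0.15 with it, and Mcm4 alone was then higher with TNFa (0.11). The log2 fold change without replicate 5 was -0.06 for Mcm6, -0.11 for Mcm2, -0.12 for Mcm7 and 0.00 for both Mcm5 and Mcm3. All 6 were lower with TNFa under every scaling tried on the 6 libraries, and Mcm4 was higher under limma voom with quality weights and without PBS replicate 3. The part of the raised ribosomal protein share of replicate 5 in the MCM values was not tested.

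**Figure D4:**
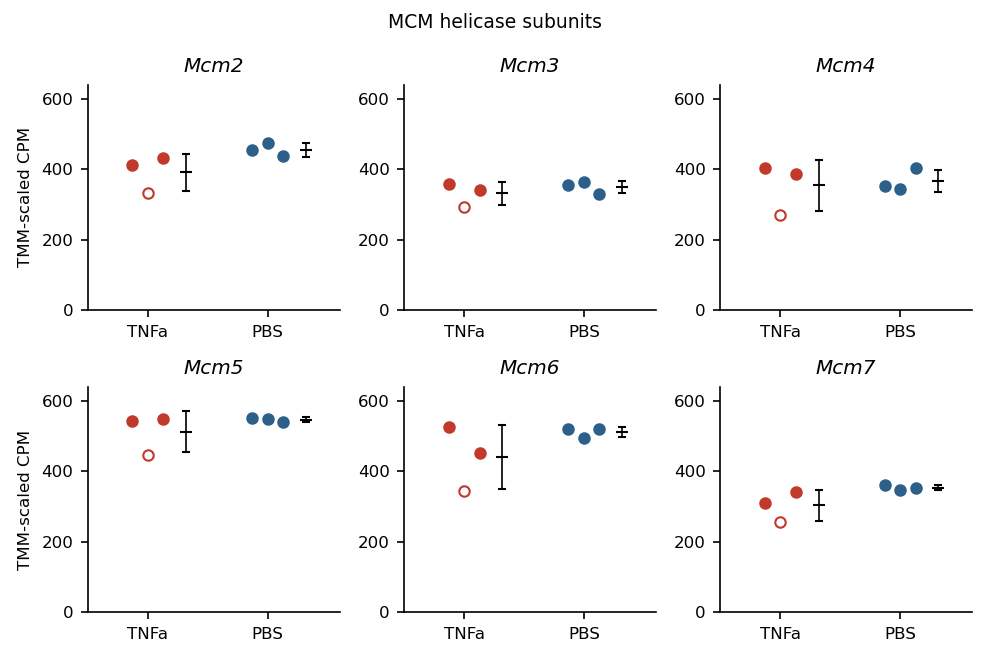
TMM-scaled CPM of the 6 MCM subunit genes in each TNFa library (red, replicate 5 open) and PBS library (blue), with mean and SD at the right of each group (n = 3). In all 6 panels the open point is the lowest of the 6 libraries.

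The genes that turn the loaded ring into a helicase showed no common shift, with 1 fitted value higher and 4 lower. Cdc45, the factor that joins MCM and GINS in the active helicase, had 107, 102 and 117 CPM with TNFa, against 119, 117 and 113 CPM with PBS (log2 fold change -0.10 ± 0.10, edgeR adjusted p = 0.842). Mcm10, which acts at helicase activation and is no part of the ring, averaged 91.8 ± 8.84 CPM with TNFa and 93.7 ± 11.5 CPM with PBS. It did not share the low value of the ring genes in TNFa replicate 5, standing at 93.9 CPM there. Of the GINS subunits, Gins3 had 32.6, 30.9 and 32.9 CPM with TNFa, against 33.1, 36.0 and 39.3 CPM with PBS. Its groups did not overlap, with a gap between TNFa replicate 6 and PBS replicate 1 far smaller than the PBS range (-0.17 ± 0.14, edgeR adjusted p = 0.794). Gins1 stood at 29.5 ± 2.06 CPM with TNFa and 26.0 ± 3.70 CPM with PBS (0.18 ± 0.16, edgeR adjusted p = 0.805). Gins2 averaged 84.7 ± 8.68 and 85.9 ± 4.43 CPM, and it shares 2758 exon bases with Gse1 on the other strand, so its reads are uncertain.

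Of the 8 polymerase, clamp and clamp loader genes, 4 had groups that did not overlap, Pold1 and Pole lower and Prim1 and Rfc3 higher with TNFa, beside 15.2% of all tested genes. None passed the test. Pold1, the catalytic subunit of polymerase delta, which copies the lagging strand, had 178, 136 and 184 CPM with TNFa, against 227, 214 and 198 CPM with PBS. All 3 TNFa libraries were lower than all 3 PBS libraries, giving 0.781 of the PBS level (95% interval 0.636 to 0.958, edgeR adjusted p = 0.489). Without replicate 5 the log2 fold change was -0.23, against -0.36 with it. Pole, of the polymerase that copies the leading strand, had 57.5, 53.0 and 67.8 CPM with TNFa, against 74.8, 74.4 and 71.3 CPM with PBS. This was 0.809 of the PBS level, also without overlap (95% interval 0.665 to 0.985, edgeR adjusted p = 0.554). The log2 fold change of Pole was -0.23 without replicate 5, against -0.31 with it. For both Pold1 and Pole replicate 5 was the lowest library.

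Prim1, the catalytic subunit of primase, which lays down the RNA primers, had 101, 107 and 108 CPM with TNFa, against 94.2, 90.6 and 97.8 CPM with PBS. Every TNFa library was above every PBS library, by a fold of 1.12 (95% interval 0.955 to 1.31, edgeR adjusted p = 0.731). Rfc3, a subunit of the clamp loader, was the other member separated upwards, with 62.9, 62.1 and 66.7 CPM with TNFa, against 58.6, 60.6 and 52.7 CPM with PBS (1.11-fold, 95% interval 0.930 to 1.34, edgeR adjusted p = 0.772). Its partners overlapped between groups, Rfc4 averaging 108 ± 12.2 CPM with TNFa and 104 ± 10.3 CPM with PBS, and Rfc5 averaging 166 ± 12.3 and 172 ± 5.22 CPM. Pola1, which extends the primers, averaged 87.5 ± 11.6 CPM with TNFa and 90.4 ± 14.7 CPM with PBS. The clamp Pcna had 485, 461 and 449 CPM with TNFa, against 506, 432 and 449 CPM with PBS, and its fold change of 1.01 had the interval 0.861 to 1.17 (edgeR adjusted p = 0.989). A pseudogene, Pcna-ps2, has its own entry in the table, so some reads of Pcna may be divided between them.

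Genes of Okazaki fragment processing and nucleotide supply overlapped between the groups throughout. Fen1, the nuclease that trims flaps, averaged 259 ± 9.56 CPM with TNFa and 263 ± 25.6 CPM with PBS, and it shares 1909 exon bases with the antisense gene Gm10143. Lig1, the ligase that seals the fragments, had 256, 310 and 253 CPM with TNFa, against 275, 271 and 258 CPM with PBS, its highest value being in TNFa replicate 5. Of the 5 nucleotide genes, all had fitted log2 fold changes between -0.09 and -0.01. Rrm2 had 1416, 1192 and 1392 CPM with TNFa, against 1398, 1267 and 1412 CPM with PBS (0.981-fold, 95% interval 0.836 to 1.15, edgeR adjusted p = 0.964), and its large partner Rrm1 averaged 516 ± 52.5 and 532 ± 41.4 CPM. TNFa replicate 5 was the lowest library for both reductase subunits. Tyms, which makes thymidylate, averaged 191 ± 8.26 CPM with TNFa and 192 ± 11.7 CPM with PBS. Tk1, the salvage kinase for thymidine, averaged 194 ± 8.31 and 207 ± 18.3 CPM, and Dut, which removes dUTP, 255 ± 31.5 and 262 ± 24.2 CPM.

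Of the regulators of S phase entry, E2f2, an activating E2F, had the most negative fold change of all 39 members. It had 61.3, 63.2 and 47.5 CPM in TNFa replicates 4, 5 and 6, against 73.4, 84.8 and 68.0 CPM in PBS replicates 1, 2 and 3. The groups did not overlap, and the fold of 0.760 had a 95% interval of 0.604 to 0.956 (log2 fold change -0.40 ± 0.15, edgeR adjusted p = 0.497). In contrast to the MCM genes, Pold1 and Pole, its lowest value was in replicate 6, and without replicate 5 it stood at -0.47 (edgeR adjusted p = 0.240). Its adjusted p was 0.315 with DESeq2 and 0.153 with limma voom. The other activator among the members, E2f1, had 53.7, 49.9 and 58.8 CPM with TNFa, against 64.4, 64.9 and 55.1 CPM with PBS. In this gene 1 PBS library lay inside the TNFa range (-0.18 ± 0.13, edgeR adjusted p = 0.751). E2f8, a repressor of E2F targets, had 52.6, 39.4 and 57.5 CPM with TNFa, against 55.2, 55.7 and 61.5 CPM with PBS (-0.20 ± 0.16, edgeR adjusted p = 0.773). Without replicate 5 its log2 fold change was -0.06. Cyclin E, the partner of Cdk2 at the G1 to S transition, overlapped between the groups. Ccne1 averaged 85.2 ± 7.84 CPM with TNFa and 83.4 ± 4.51 CPM with PBS, and Ccne2 averaged 62.4 ± 1.96 and 58.7 ± 6.81 CPM.

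Clspn, the claspin adaptor that passes the replication stress signal to Chek1, was the most variable member. It had 53.2, 88.3 and 69.7 CPM with TNFa, against 87.4, 58.5 and 66.3 CPM with PBS, ranging as widely within each group as between them (log2 fold change -0.01 ± 0.20, edgeR adjusted p = 0.995). Without TNFa replicate 5 it was -0.20. Chek1 itself averaged 27.3 ± 2.33 CPM with TNFa and 25.4 ± 1.95 CPM with PBS. Uhrf1, which brings the maintenance methyltransferase Dnmt1 to newly copied DNA, had 344, 301 and 353 CPM with TNFa, against 366, 386 and 346 CPM with PBS, with TNFa replicate 5 again the lowest library (-0.14 ± 0.10, edgeR adjusted p = 0.772). Without replicate 5 its log2 fold change was -0.07.

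TNFa replicate 5 held the lowest value for 17 of the 39 members, or 43.6%, while over the 6383 tested genes at least as abundant as the least abundant member it held the lowest value for 38.2%. The members' median deviation from the PBS mean was -0.02, -0.12 and -0.03 on the log2 scale in TNFa replicates 4, 5 and 6. Not every member was low in replicate 5, and 7 of the 39 (Gmnn, Clspn, Lig1, Rfc4, Orc6, Dut and Gins2) had their highest value of the 6 libraries there. Of the 6383 genes, 25.3% had their highest value there. Without replicate 5, 14 members had higher fitted values and 25 lower ones, and the sign turned for 9 (Rrm1, Rrm2, Fen1, Lig1, Mcm4, Gmnn, Rfc4, Rfc5 and Orc1). Their median was then -0.05 on the log2 scale, and 0 were called.

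**Figure D5:**
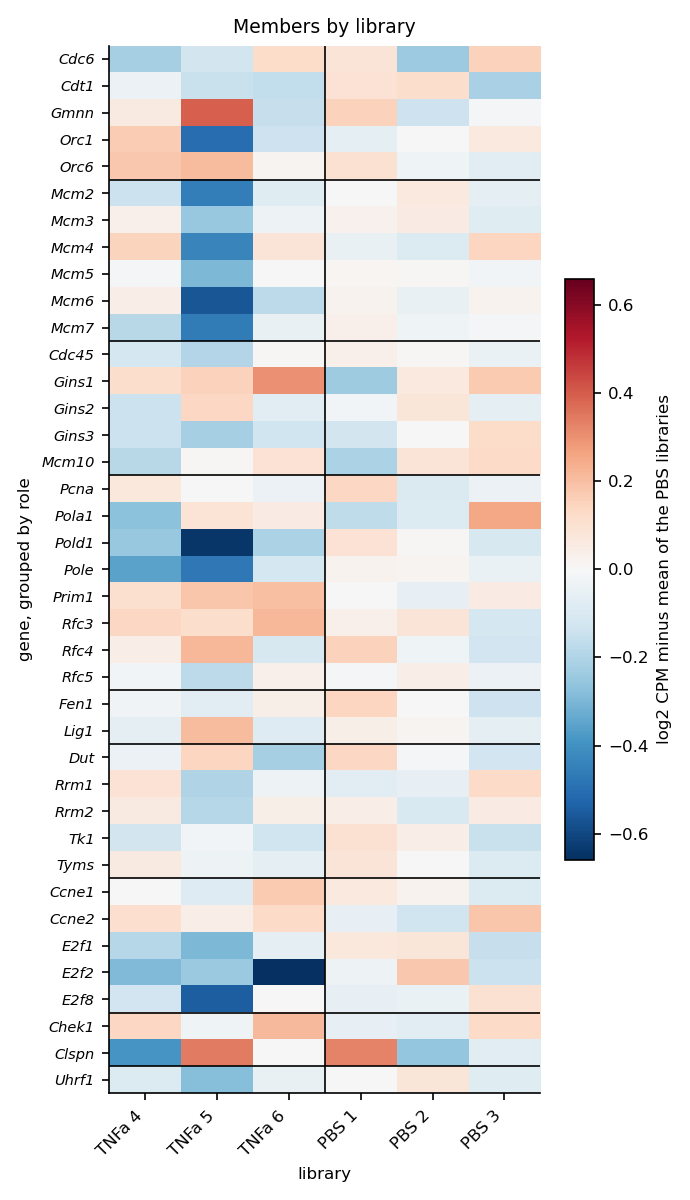
Log2 CPM of each gene minus its mean over the PBS libraries, by library, with genes grouped by role (horizontal lines). The column of TNFa replicate 5 is blue over the block of 6 MCM genes, over Pold1, Pole, E2f8 and Orc1, and red for Gmnn and Clspn.

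Other genes of the replication machinery were not called either. Of a list of 70 other replication genes, 0 passed the test, 33 had higher and 37 lower fitted values with TNFa, and their median was -0.02 on the log2 scale. Their groups did not overlap for 6 (3 higher, 3 lower), beside 15.2% of all tested genes. The 4 with the highest level per length were Pole4, Slbp, Asf1b and Dctpp1. Pole4, a small subunit of polymerase epsilon, had 356, 341 and 315 CPM with TNFa, against 434, 391 and 383 CPM with PBS, without overlap (log2 fold change -0.26 ± 0.10, edgeR adjusted p = 0.518). Slbp, which binds the stem-loop of histone mRNAs, averaged 390 ± 23.9 and 396 ± 31.3 CPM, the histone chaperone Asf1b 259 ± 25.6 and 296 ± 12.4 CPM, and the dCTP hydrolase Dctpp1 98.4 ± 13.7 and 109 ± 14.3 CPM. Genes of mitosis and G2/M had a median of -0.12 with 25 of 30 lower and 0 called, and 12 of them did not overlap (11 lower and 1 higher, beside 8.35% and 6.85% of all tested genes). In that group Mki67 averaged 469 ± 90.3 CPM with TNFa and 474 ± 63.6 CPM with PBS, and Top2a 674 ± 10.1 and 624 ± 30.2 CPM. No difference between the replication and the mitosis genes was tested.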

How the data were processed

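Gene expression was read from RNA-seq of 6 libraries of sorted mouse lung ILC2s, 3 cultured with TNFa and 3 with PBS. Per the labels' protocols, libraries were made by standard methods from cDNA of total RNA. The values the authors deposited are estimated counts, not scaled between libraries, and the name of the deposited table gives Partek's E/M quantification to an annotation model. The submitters' processing notes list CASAVA 1.8.2, STAR, Partek and mm10. The sources used here do not give the annotation release or strand use. Where the counting ignored strand, reads of overlapping genes cannot be told apart. This touches 12 members that share exon bases with a gene of the deposited table on the other strand. Pole shares 78 exon bases with Gm15792, an antisense gene that the deposited table does not hold. The table held 0 further columns of values.

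After rounding, these counts went into edgeR 4.0.16 (R 4.3.3) with filterByExpr (minimum count 10 and minimum total 15, TMM, robust quasi-likelihood fit), with Benjamini-Hochberg adjustment over all tested genes at 0.05. SEs and 95% intervals were derived from the F statistic. DESeq2 1.42.0 and limma 3.58.1 were alternatives, beside other scalings, filters, a length correction and leaving out each library. Deviations are on log2 CPM (prior count 2). Levels per kb used the main transcript in GENCODE M21 (mm10), where all 39 members had the deposited coordinates. Promoter sequences are RefSeq's. Pairs of libraries within a group had chi-square values of 15.1 to 115 per degree of freedom, above sampling noise. PBS replicate 2 is labelled a repeat.

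The members and lists were chosen with earlier results of these data known. Every member is named. Of the other replication genes, those called and the 4 with the highest level per length are named, and of the mitosis genes Mki67 and Top2a. The level of Gins4 was added after values were seen, beside its partners among the members. The Mcm5 and Mcm7 promoters were added after values were seen.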

Additional observations from a re-analysis of the deposited data

How the results depend on the processing

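No paired analysis was possible because the groups share no replicate numbers. The count of members called was 0 under every alternative, as were the counts for the other replication genes and the mitosis genes. The median log2 fold change of the members stayed negative, between -0.09 (without TNFa replicate 6) and -0.01 (upper quartile scaling). No alternative moved it by more than the SD of the members' median deviation within groups, 0.046. Without TNFa replicate 6 it moved by nearly that much, from -0.047 to -0.093. Fitted values of single members changed sign for up to 9 of 39, the most without TNFa replicate 5, and none of these was called. Members without overlap between groups ranged from 8 to 17 when 1 library was left out, where 21.5% to 27.2% of all genes did not overlap, and from 6 to 8 under the other alternatives, where 13.2% to 18.4% did not. The count of genes called over the whole table, 16, was 218 with DESeq2, 78 with limma voom, 3 with no filter on low counts (more genes tested), 25 with a mean of at least 5 CPM (fewer genes tested) and 30 with the transcript length trend removed, and ranged from 1 to 67 when 1 library was left out; beyond the number of genes or libraries, the cause was not tested. With 3 libraries a group, SEs of 0.10 to 0.20 on the log2 scale limit the members more than depth does.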
